A study of Danio rerio with 12 samples.

Results

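The broad regions open in every fraction are peaks of open chromatin at least 1000 bp wide in each of 4 cell fractions sorted from zebrafish embryos. They were chosen from the double positive list, on chromosomes 1 to 25, as peaks of 1000 bp or more that overlap by 1 bp or more a peak of 1000 bp or more in each of the other 3 lists. Of 90687 double positive peaks on these chromosomes, 1041 met the rule (1.15%, Wilson 95% interval 1.08 to 1.22). They were 1.85% (1.74 to 1.96) of the 56302 double positive peaks that were called in all 4 lists at any width. Width in all 4 lists chose them, so width and whatever moves with it is described here without a test.

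The assay was ATAC-seq, where Tn5 transposase cuts DNA that nucleosomes leave bare and adds sequencing adaptors there. All 4 groups came from wild-type whole embryos at 72 hours post fertilisation that carried both transgenes, kdrl:mCherry and sele:GFP, with no treatment. The kdrl gene makes a VEGF receptor of blood vessel cells, and sele encodes the adhesion molecule E-selectin of endothelial cells, so both reporters depend on promoters of endothelial genes and a sorted fraction is defined by fluorescence alone. The groups were double positive cells, mCherry only cells, GFP only cells and double negative cells, with 3 samples and 1 pooled peak list each. Between 12000 and 50000 cells were used per fraction. Whether the samples of a group came from separate clutches or sorts is not given in the labels, and pooled lists carry no replicate error.

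Most accessible sites are short, about what is exposed when one or a few nucleosomes give way to bound proteins. A much wider peak arises where several such sites lie close enough for the caller to join them. In vertebrates wide accessible stretches are known from CpG-rich promoters of broadly used and developmental genes and from clusters of enhancers. Regions that are open in sorted endothelium and in the rest of the embryo alike are the shared ground against which the fraction-specific sites of such a series are read.

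The double positive list held 90689 peaks, that of mCherry only 134262, that of GFP only 138366 and that of double negative 166285, with median widths of 341 to 379 bp. Total read numbers are unknown. The lowest expected background at any peak of a list stands in for depth, and was 3.63 reads in double positive, 4.46 in mCherry only, 4.26 in GFP only and 4.47 in double negative. Height here means reads at a summit divided by that background, both recovered from the deposited fold and −log10 p.

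Broad peaks were a small part of every list. There were 2027 of 1000 bp or more in double positive, 3392 in mCherry only, 2206 in GFP only and 4691 in double negative. The 1041 regions took in 51.4% of the broad double positive peaks (49.2 to 53.5) and 47.2% of the broad GFP only peaks (45.2 to 49.3). They took in 30.7% of the broad mCherry only peaks (29.2 to 32.3) and 22.2% of the broad double negative peaks (21.0 to 23.4). The GFP only list was the one that most often ended the sharing. Of the 2027 broad double positive peaks, 302 (14.9%) lacked a broad partner in GFP only alone, 80 in double negative alone and 53 in mCherry only alone, while 215 (10.6%) had none in any other list. Where a broad double positive peak had no broad GFP only partner, 783 of 826 still overlapped a GFP only peak, of median width 723 bp. Only 43 overlapped none, as did 38 of 544 in double negative and 1 of 382 in mCherry only.

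The threshold of 1000 bp cuts through a continuous range of widths. Just inside, the region on chromosome 5 from 64861515 to 64862514 was 1000 bp wide in double positive, 1018 in mCherry only, 1045 in GFP only and 1043 in double negative. The region on chromosome 3 from 1918829 to 1919828 was also 1000 bp wide, with 1459, 1088 and 1082 bp in the same order, and that on chromosome 6 from 17869741 to 17870746 had its smallest width, 1000 bp, in GFP only. Just outside, a peak on chromosome 25 from 35320827 to 35321864 was 1038, 1039 and 1016 bp wide and failed at 999 bp in double negative. Peaks on chromosome 17 from 53813066 to 53814064 and on chromosome 5 from 72898549 to 72899546 failed at 999 and 998 bp in double positive.

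The 4 lists drew nearly the same outline around these regions. Median width was 1188 bp in double positive (quartiles 1095 and 1344), 1242 bp in mCherry only, 1191 bp in GFP only and 1243 bp in double negative. The stretch common to all 4 peaks had a median of 1125 bp and was 89.5% of their combined span in the median (quartiles 81.0 and 94.2). It reached 1000 bp in 961 of the 1041 regions (92.3%, 90.5 to 93.8). Starts and ends lay 19 bp from those of double positive in mCherry only, 21 bp in GFP only, and 23 and 22 bp in double negative, each in the median. A width differing by 1.5 times or more between double positive and at least 1 other list was found in 53 of the 1041 regions (5.09%, 3.91 to 6.60). That share was 47.1% over all 56302 shared peaks and 31.8% over those tall enough for a mean height of 10, but width chose the regions, so nothing is read from the contrast. Only 4 regions had more than 1 broad partner in some list. In the other direction, 2 mCherry only peaks, 3 GFP only peaks and 3 double negative peaks each held a pair of broad regions that double positive had kept apart.

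These regions were tall as well as wide. Median height was 28.4 in double positive (quartiles 20.4 and 38.3), 28.7 in mCherry only (20.6 and 36.8), 25.1 in GFP only (17.8 and 32.6) and 27.5 in double negative (19.9 and 36.1). The corresponding numbers of reads at the summit were 103, 128, 107 and 123. In the 24747 other shared peaks whose mean height over the 4 lists was 10 or more, called tall shared peaks here, the median heights were 16.0, 17.5, 14.5 and 15.7. The quartile ranges of the 2 sets overlap in every list. Height reached 10 in all 4 lists in 994 regions, 20 in 641 and 40 in 118.

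**Figure D1:**
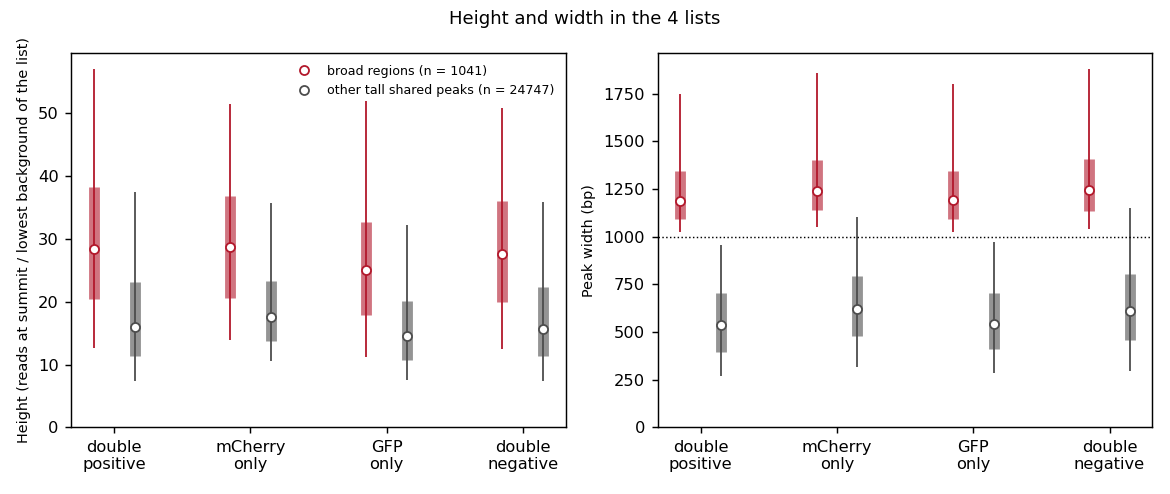
Height (left) and width (right) in the 4 lists for the 1041 broad regions and the 24747 other shared peaks of mean height 10 or more; circles are medians, thick bars quartiles and thin lines the 5th to 95th percentiles, and the dotted line marks the 1000 bp that chose the broad regions. The broad regions were the taller set in each list, with median heights of 25.1 to 28.7.

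The share of broad regions rose with height. Among all shared peaks they were 11 of 30525 below a mean height of 10, 259 of 18412 (1.41%) from 10 to 20, 348 of 4897 (7.11%) from 20 to 30 and 257 of 1775 (14.5%) from 30 to 40. They made up 137 of 607 (22.6%) from 40 to 60 and 29 of 86 (33.7%, 24.6 to 44.2) from 60 upwards. Even among the tallest shared peaks, then, most were narrower than 1000 bp in some list. Within the broad regions, width and height were only loosely related (Spearman's rho 0.20 over 1041 regions, a description, since the regions share the same libraries). The 632 regions of 1000 to under 1250 bp had a median double positive height of 26.7, the 269 up to 1500 bp one of 29.7, the 113 up to 2000 bp one of 33.6 and the 27 wider ones one of 47.6. The local background, described below, rose with width as well. Its medians were 2.55, 3.22, 4.27 and 13.0 times the lowest background in the same order. It was high in 28 of the 29 broad regions with a mean height of 60 or more. The rise of height with width is not given without such regions.

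Heights of the broad regions differed little between fractions. The height in double positive differed by 1.5 times or more from that in at least 1 other list in 122 of the 1041 regions (11.7%, 9.90 to 13.8). Over all 56302 shared peaks that share was 52.7%, and over those with a mean height of 10 or more it was 41.4%. The highest of the 4 heights was 1.26 times the lowest in the median (quartiles 1.18 and 1.40), against 1.51 times in the other tall shared peaks. At 2 times or more there were 45 regions (4.32%), against 27.1% of the other tall shared peaks. A region had to be wide in every list to be chosen, and tall peaks tended to be wide. How much of this evenness comes with that rule was not tested. The other tall shared peaks were also lower, with a median of 58 reads in double positive against 103. Another 926 shared peaks were broad in double positive and narrower elsewhere. Of these, 394 (42.5%) differed by 1.5 times or more, near the 42.7% of the other tall shared peaks.

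Taken list by list, the double positive height was 1.0 times that of mCherry only in the median (quartiles 0.929 and 1.09), 1.14 times that of GFP only (1.05 and 1.24) and 1.04 times that of double negative (0.934 and 1.17). Against mCherry only, 8 regions were higher in double positive by 1.5 times or more and 14 lower, where the shares over all shared peaks were 4.41% and 18.2%. Against GFP only, 54 were higher and 9 lower, where those shares were 14.8% and 14.5%. Against double negative, 36 were higher and 34 lower, where they were 14.1% and 21.4%. All 6 counts are smaller shares of the 1041 regions, at 0.768% to 5.19%, than the shares over all shared peaks. Nothing is read from that, since the other shared peaks had a median of only 32 reads in double positive, against 103. Over all shared peaks of mean height 10 or more, the shares against mCherry only were 3.19% and 12.5%. The balance of higher and lower depends on the scale. With heights rescaled so that tall shared peaks have the same median in every list, 16 regions were higher than in mCherry only and 6 lower, the reverse order, where the shares over all shared peaks were 6.67% and 12.9%. Against GFP only 22 were then higher and 12 lower, where they were 11.3% and 19.2%, and against double negative 33 and 35, where they were 13.8% and 21.7%.

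GFP only gave the lowest of the 4 heights in 638 of the 1041 regions (61.3%, 58.3 to 64.2), against 41.5% of the other tall shared peaks, but this order depends on the scale. With rescaled heights mCherry only was the lowest most often, in 441 regions (42.4%), against 20.1% of the other tall shared peaks, and GFP only in 247 (23.7%), against 22.9%. On the log2 scale the medians divided by were 0.13 for mCherry only and −0.14 for GFP only, relative to double positive. Rescaling thus lowered mCherry only and raised GFP only. Double positive was the highest list most often under both scales, in 390 regions (37.5%) as reported and in 405 (38.9%) rescaled. The shares of the other tall shared peaks were 26.2% and 27.7%. In the 926 peaks broad in double positive and narrower elsewhere they were 42.7% and 45.5%. The lead was thus not particular to regions broad in all 4 lists. In the broad regions mCherry only came next as reported, in 307 (29.5%), and double negative rescaled, in 320 (30.7%). Part of the lead as reported came from the regions of high local background described below. In width, the shares of the widest list were close to those of other peaks. Double negative was the widest in 37.2% of the regions and in 37.1% of the other tall shared peaks. For double positive these shares were 13.1% and 13.9%. The order of the narrowest list differed. In the regions it was GFP only in 39.9% and double positive in 34.9%. In the other tall shared peaks it was GFP only in 36.6% and double positive in 39.1%.

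A minority of the broad regions had a high local background. In 83 of the 1041 (7.97%, 6.48 to 9.78) the expected local background was 8 times the lowest background or more in every list, a threshold set after seeing the values. Among the other shared peaks 414 of 55261 (0.749%) were of this kind. Local background is the read density that the fold is computed against, and in the remaining regions it was raised less, so that over all broad regions it was 2.84 times the lowest background in the median of double positive. The 83 regions had a median height of 60.3 in double positive against 27.3 in the other 958, and a median deposited fold of 3.06 against 8.87. Height and fold are both tied to the local background that chose the class, so nothing is read from these differences. The heights of the classes overlap, from 28.9 to 102 in the 83 regions and from 5.78 to 85.4 in the others.

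Read numbers in most of these 83 regions were nearly equal in the 4 lists, although the backgrounds of the lists differ. The highest of the 4 was 1.12 times the lowest in the median, against 1.35 times in the other 958. Some regions stood well off equality in either direction, such as 147 reads in double positive against 214 in double negative, and 173 against 76. Double negative had 1.0 times the reads of double positive in the median (quartiles 0.957 and 1.03), mCherry only 1.03 times (0.997 and 1.07) and GFP only 1.05 times (1.01 and 1.10). The lowest backgrounds stand at 1.23, 1.23 and 1.17 times that of double positive in the same order. In the other 958 regions the corresponding read ratios were 1.19 (1.08 to 1.33), 1.23 (1.15 to 1.33) and 1.03 (0.935 to 1.12), near the background ratio for both GFP-negative lists. Because height divides by that background, double positive was the highest list in 74 of the 83 regions, against 316 of the other 958 (33.0%, 30.1 to 36.0). In those 958 mCherry only was the highest nearly as often, in 304 (31.7%, 28.9 to 34.7). With rescaled heights double positive was the highest in 357 of the 958 (37.3%) and double negative in 315 (32.9%). What sets the near-equal read numbers was not tested, and where the reads are equal the heights differ between lists only by those backgrounds. The 83 regions also had more reads, with a median of 219 in double positive against 99 in the other 958. The classes were not compared at like read numbers, so local background and read number cannot be told apart here. In 5 of the 83 (6.02%) the double positive height differed from another list by 1.5 times or more. Over all shared peaks that share was 52.7%, and over those of mean height 10 or more 41.4%. Nothing is read from that, since read numbers differ between these sets. The results that follow are given with and without them where they matter.

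**Figure D2:**
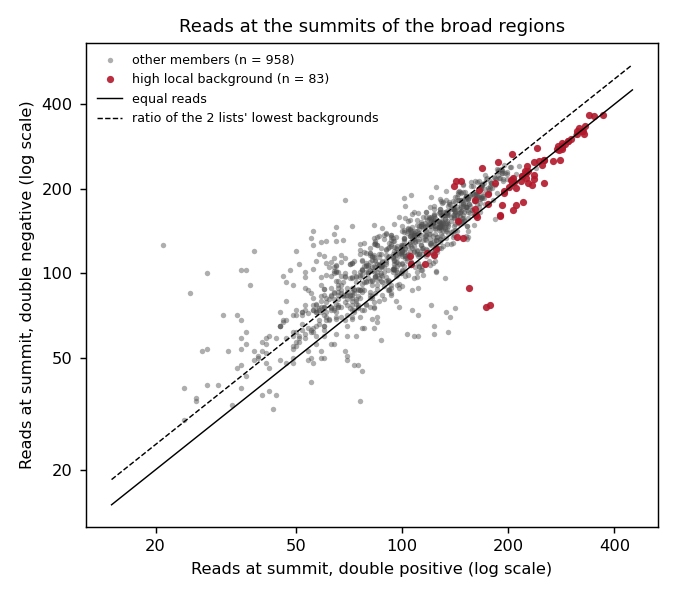
Reads at the summit in the double positive list (x, log scale) and the double negative list (y, log scale) for each broad region, with the 83 regions of high local background in red and the other 958 in grey; the solid line marks equal reads and the dashed line the ratio of the lowest backgrounds of the lists, 1.23. Most red points lie near the line of equal reads, with a median ratio of 1.0, but some lie well off it on either side. The grey points lie around the dashed line, with a median ratio of 1.19.

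The tallest broad region ran from 21108059 to 21109982 on chromosome 14, with 371 reads in double positive (exact Poisson 95% interval 334 to 411), 370 in mCherry only, 369 in GFP only and 365 in double negative. Its height was therefore 102 in double positive and 81.7 to 86.5 in the other lists, while its double positive fold was only 2.88. The third tallest, from 21106224 to 21107973, is its neighbour, with 339 and 344 reads in the mCherry-positive lists. In GFP only and double negative a single peak of 3756 and 3771 bp covered both.

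The second tallest, from 40105829 to 40107511 on chromosome 17, had 351 reads in double positive, 358 in mCherry only, 367 in GFP only and 362 in double negative. The fourth lay on chromosome 10 from 16751295 to 16752658, with 331, 343, 342 and 335 reads in the same order. The next in height lay on chromosome 16 from 28160961 to 28162033, with 328, 326, 324 and 314 reads. All 5 belong to the 83 regions of high local background, and in each of them the counting intervals of the 4 lists overlap.

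The tallest regions outside that class were named after their values were seen. Their local background in double positive was still raised, at 5.3 to 9.1 times the lowest, against a median of 2.84 over all broad regions. The region on chromosome 15 from 45149315 to 45150416 had 310 reads in double positive (276 to 347), 317 in mCherry only, 331 in GFP only and 310 in double negative, with widths of 1102 to 1114 bp and a fold of 11.5. On chromosome 24 from 11726393 to 11727914 the reads were 239, 249, 236 and 238. On chromosome 19 from 47057726 to 47058955 they were 215, 237, 206 and 241, and the 4 summits fell within 16 bp. On chromosome 12 from 23915012 to 23916053 they were 211, 224, 208 and 226, with the 4 summits within 2 bp. A second region of chromosome 19, from 24973209 to 24974210, had 207, 225, 197 and 218 reads. In the last 3, GFP only had the fewest reads and a GFP-negative list the most. On chromosomes 15 and 24 the reads were nearly equal in the 4 lists, as in most regions of high local background.

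The widest broad region lay on chromosome 11 from 18064623 to 18068911. It was 4289 bp wide in double positive, 4297 in mCherry only, 4300 in GFP only and 4304 in double negative, so that the 4 outlines differed by 15 bp at most in width. Its reads were 301, 316, 314 and 300, and its 4 summits fell within 22 bp. Its local background was high, as it was for all of the 5 widest regions.

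The other 4 of these were outlined less alike. Regions on chromosome 14 from 34022117 to 34025835 and from 33901970 to 33905132 were 3719 and 3163 bp wide in double positive, but each was split into 2 broad peaks in all 3 other lists. Their reads were 177 and 173 in double positive. The pieces with the longest overlap had 127 and 130 in mCherry only, 144 and 147 in GFP only and 77 and 76 in double negative. These reads were not nearly equal, unlike those of most regions of high local background. The summits of those pieces lay 3 to 1755 bp from the double positive summit, and the reads of the other pieces are not given here. The region on chromosome 5 from 1200766 to 1203922 was 3157 bp wide in double positive and lay inside peaks of 4816 to 4843 bp elsewhere. The region on chromosome 3 from 26906757 to 26909784 was 3028, 3274 and 3321 bp wide in double positive, mCherry only and double negative and was cut into 2 broad peaks in GFP only.

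A few regions departed from the even pattern in height. Over all 1041, the double positive height was 1.06 times the geometric mean of the other 3 in the median (quartiles 0.991 and 1.14). It was 1.5 times or more in 17 regions and below the inverse of that in 7. The shares of all shared peaks with such ratios were not computed, so nothing is read from these counts. The highest ratio, 2.16, was on chromosome 12 from 36559607 to 36560763, where double positive had 123 reads (102 to 147), mCherry only 88, GFP only 57 and double negative 65. On chromosome 16 from 27471777 to 27472906 the reads were 76, 47, 53 and 35, and on chromosome 18 from 41553593 to 41554944 they were 137, 113, 66 and 70. In the first and the last of these, both mCherry-positive lists were above both mCherry-negative ones.

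The opposite extreme was a region on chromosome 9 from 45709390 to 45710465, with 21 reads in double positive (13.0 to 32.1), 57 in mCherry only, 31 in GFP only and 126 in double negative. Its double positive height was 0.419 times the mean of the others, the lowest ratio found. On chromosome 1 from 7824205 to 7825550 there were 25, 61, 53 and 85 reads. On chromosome 20 from 37824735 to 37825855 there were 45, 101, 105 and 65. The first 2 were thus highest in double negative and lowest in double positive, while the third was highest in the single-reporter lists.

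The 4 lists often placed the summit of a broad region at the same spot. The spread from the first to the last of the 4 summits was 33 bp in the median (binomial 95% interval 29 to 37), and 744 of the 1041 regions (71.5%, 68.7 to 74.1) had all 4 within 100 bp, against 78.4% of the other tall shared peaks. Within 25 bp there were 458 regions (44.0%), against 36.6% of the other tall shared peaks, which are lower in the median. Yet 220 regions (21.1%, 18.8 to 23.7) had summits spread over more than 300 bp, against 9.37% of the other tall shared peaks (9.01 to 9.74). At like height the summits of broad regions lay within 100 bp less often than those of other shared peaks. The shares were 46.7% against 74.3% at a mean height of 10 to 20, 74.1% against 88.1% from 20 to 30, 89.5% against 94.1% from 30 to 40 and 81.0% against 92.3% from 40 to 60. In the same order of heights the median spreads were 151 bp against 45, 29 against 23, 19 against 19 and 30 against 23. Wider peaks leave more room for a large spread.

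Within the 220 widely spread regions the summits mostly fell into a few tight places. With summits joined when at most 100 bp apart, 129 of the 220 had 3 lists together and 1 apart, 40 had the lists 2 against 2, 42 had 2 together and 2 apart, and 9 had all 4 apart. The list that stood apart was double negative in 48 of the 129, GFP only in 45, double positive in 24 and mCherry only in 12. In the 40 even splits, double positive went with mCherry only in 16, with GFP only in 13 and with double negative in 11. These regions were lower, with a median double positive height of 21.6, against 31.1 in those with all 4 summits within 100 bp.

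The largest spread, 3480 bp, was on chromosome 5 from 1199363 to 1200665, a region of 1303 bp in double positive that the other lists covered with the same peaks of 4816 to 4843 bp as its neighbour. On chromosome 4 from 54523025 to 54524305 the spread was 2248 bp, and the region had 42, 37, 55 and 46 reads. On chromosome 3 from 8434709 to 8437148 the summits of double positive, mCherry only and double negative lay within 48 bp of each other, while that of GFP only lay apart, in a peak of 1433 bp, for a spread of 2037 bp. Of the 27 regions of 2000 bp or more, 10 (37.0%) had all 4 summits within 100 bp.

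The summit of a broad region could lie anywhere along it. In double positive, 196, 220, 199, 243 and 183 summits fell in the first to the last of 5 equal parts of the peak. In the other tall shared peaks 43.7% fell in the middle part and 5.84% in the outer parts together, against 19.1% and 36.4% in the broad regions. The 926 peaks broad in double positive and narrower elsewhere gave 19.0% and 32.8%. The other 3 lists gave 17.9% to 19.7% in the middle part. The median distance of the double positive summit from the centre was 303 bp without the regions of high local background, and 302.5 bp with them.

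**Figure D3:**
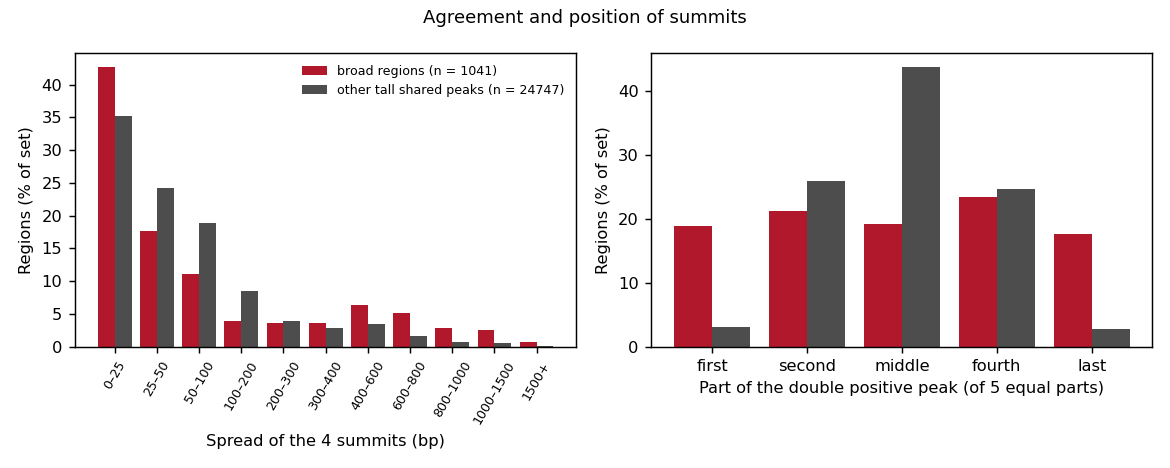
Left, share of regions by the distance between the outermost of their 4 summits, in bp, in bins that widen to the right; right, share by which of 5 equal parts of the double positive peak holds its summit, each for the 1041 broad regions and the 24747 other tall shared peaks. In the broad regions 42.7% of spreads were under 25 bp, their share exceeded that of the other peaks again in the bins from 300 bp up, and the middle part held only 19.1% of the summits.

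Broad regions were found on all 25 chromosomes, from 24 on chromosome 15 to 74 on chromosome 5. Per 1000 shared double positive peaks there were 18.5 (17.4 to 19.6) over the genome. Chromosomes 8, 2, 3 and 20 had the most, with 25.5 (19.9 to 32.6), 24.4 (19.0 to 31.3), 24.2 (19.2 to 30.5) and 24.0 (18.6 to 31.0). Chromosomes 4, 15 and 11 had the fewest, with 11.2 (7.70 to 16.2), 11.4 (7.70 to 17.0) and 12.4 (8.44 to 18.3). In these 7 of 25 chromosomes the counting interval left out the overall rate, and most neighbours in the order overlap. The highest rate was 2.28 times the lowest, and 2.41 times without the regions of high local background. Chromosomes 8, 2, 3 and 20 held 6, 5, 6 and 7 of those regions, and chromosomes 4, 15 and 11 held 4, 2 and 1. Intervals of single chromosomes without them are not given, so the 7 named hold for all broad regions together. By length, as far as the last peak of a chromosome reaches, density ran from 0.435 per Mb on chromosome 4 to 1.11 per Mb on chromosome 3.

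**Figure D4:**
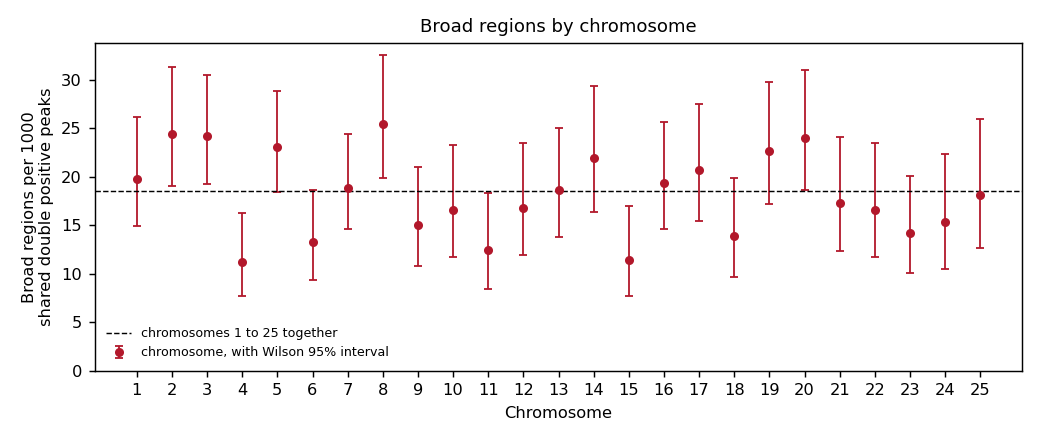
Broad regions per 1000 double positive peaks shared by all 4 lists, by chromosome, with Wilson 95% intervals that cover counting error only; the dashed line is the rate over chromosomes 1 to 25, 18.5. The points run from 11.2 on chromosome 4 to 25.5 on chromosome 8, and 7 intervals leave out the line.

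On chromosome 4 the counting interval left out the overall rate beyond 25 Mb and held it up to 25 Mb. Up to 25 Mb there were 16 broad regions among 1237 shared peaks (12.9 per 1000, 7.98 to 20.9), and beyond 25 Mb 11 among 1178 (9.34 per 1000, 5.22 to 16.6). The intervals of the 2 parts overlap. Of all broad regions 1.06% (0.591 to 1.88) lay beyond 25 Mb, against 1.12% of the other tall shared peaks. Up to 25 Mb lay 1.54% (0.948 to 2.48), against 2.26%. The outermost 1 Mb of the chromosomes held a larger share of the broad regions than of the other tall shared peaks, which were lower in the median. Within 1 Mb of the first base or of the last peak of a chromosome lay 99 of the 1041 broad regions (9.51%, 7.87 to 11.4), 49 at the start and 50 at the end, against 6.09% of the other tall shared peaks (5.79 to 6.39). Without the regions of high local background the share was 9.71%. It was 5.29% (4.03 to 6.93) for the 926 peaks that were broad in double positive and narrower elsewhere.

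The nearest other broad region was 332 kb away in the median (quartiles 93.5 and 869 kb). It was 385 kb away without the 83 regions of high local background. Among the 926 peaks broad in double positive and narrower elsewhere the median was 399 kb. Of the 1041 broad regions, 103 (9.89%, 8.23 to 11.9) had another within 20 kb. They formed 41 pairs and 6 longer chains, with gaps of at most 20 kb between summits. In an equal number of the tallest other shared peaks, 349 (33.5%) had such a neighbour. Peaks of high local background were not removed from that set. Of the 86 shared peaks with a mean height of 60 or more, broad or not, 80 were of that kind. Without the 83 regions of high local background, 42 of 958 broad regions had a neighbour within 20 kb (4.38%, 3.26 to 5.87), in 21 pairs and no longer chain. That is near the 5.51% (4.21 to 7.17) of peaks broad in double positive and narrower elsewhere. The chains of 3 or more thus rest on the regions of high local background.

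The longest chain held 5 broad regions on chromosome 16 from 28154455 to 28179433, all of high local background. Their reads in double positive were 313, 328, 284, 227 and 296 along the chromosome, and in double negative 320, 314, 282, 231 and 296. Widths in double positive ran from 1006 to 1596 bp. Another 10 double positive peaks lay between its outer summits, which were 23.7 kb apart. A chain of 4 lay on chromosome 5 from 1182177 to 1203922, with 9 double positive peaks in all. Chains of 3 lay on chromosome 3 from 26906757 to 26923347, on chromosome 7 from 54470206 to 54479470 and in 2 places on chromosome 13, from 15449592 to 15466847 and from 19210829 to 19222073.

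Within 50 kb of a broad region, other open sites were about as dense as around other shared peaks, but the nearest one lay farther off. The nearest double positive peak of any kind lay 5838 bp from the summit in the median, against 4322 bp for other shared peaks. It lay 5988.5 bp away for the 926 peaks broad in double positive and narrower elsewhere. The greater distance was thus not particular to regions broad in all 4 lists. Within 50 kb there were 8.94 other double positive peaks on average, against 8.63 around other shared peaks. Around the tallest other ones, from which high local background was not removed, there were 13.1. Within 10 kb, 228 broad regions (21.9%) had none, as had 20.8% of the other shared peaks. Without the regions of high local background, the nearest peak lay 6172.5 bp away in the median and 23.7% had none within 10 kb. Those 958 regions had 1.47 such peaks within 10 kb on average, against 1.75 around other shared peaks, and 8.50 within 50 kb.

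**Figure D5:**
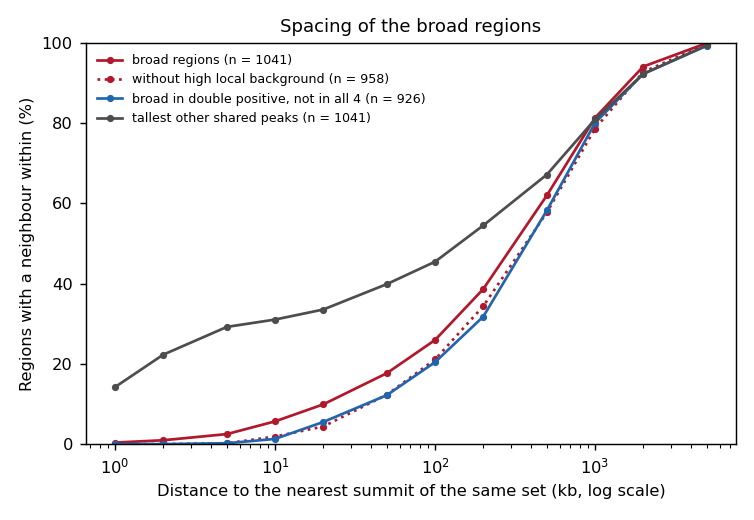
Share of regions (y) with another summit of the same set within a given distance (x, kb, log scale), for the 1041 broad regions, the same without the 83 of high local background, the 926 shared peaks broad in double positive and under 1000 bp in at least 1 other list, and the 1041 tallest other shared peaks. Peaks of high local background were not removed from the last set. Within 20 kb the shares were 9.89%, 4.38%, 5.51% and 33.5%, and the 4 lines come together towards 1000 kb.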

How the data were processed

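ATAC-seq had been run on 12 samples in 4 sorted groups of 3, and 1 peak list per group was analysed, which the labels name for all 3 samples of a group. The build danRer7, Bowtie2 2.2.1 and MACS2 2.1.0 are named in the submitters' processing notes. For caller settings, read filters, Tn5 offsets and pooling, nothing is given in the sources used here. The authors deposited, for each peak, its start, end and summit offset in bp, a fold (a linear ratio over the background expected at the summit), the −log10 of its p and q values, and a display score, which was not used.

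The number of reads at each summit and its expected local background were recovered as the whole number that gives both the fold, with a pseudocount of 1, and the −log10 p under a Poisson tail. The largest misfit of −log10 p was 0.000382, and the next whole number missed by at least 0.00808. This pileup model is inferred from the values. On 20000 peaks simulated for each list from the same formulas, 100% of the read numbers were recovered, and 100% of 17991 simulated double positive peaks were classed correctly by the width rule, which checks the computation only. Height is the number of reads divided by the lowest background of the same list. Total read numbers are unknown, so the lowest background stands in for depth.

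In each other list the peak of 1000 bp or more with the longest overlap was the partner of a broad region, and for other shared peaks the partner was the peak with the longest overlap. Coordinates are danRer7, counted from 1. Ratios of 1.5 or more in either direction were called. With 1 list a group there was no test and no p-value. Wilson 95% intervals for shares, binomial ones for medians and exact Poisson 95% ones for reads reflect counting error and nothing else. Peaks are not replicates, and neighbouring ones share a source. Regions named are the 5 highest, the 5 widest, the 3 with the largest and the 3 with the smallest height relative to the other lists, the 3 with the widest summit spread, the 3 nearest the width threshold on either side and the longest chain. The 5 highest outside the class of high local background were added after values were seen. So were the threshold of 8 on local background and the rescaled heights. The broad regions, the alternatives and the tests were chosen with earlier results of these data known. Python 3.11.15, numpy 2.4.6, pandas 2.3.3 and scipy 1.17.1 were used. No danRer7 genome or annotation was used here, so gene context, sequences and the loci of kdrl and sele are not analysed here.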

Additional observations from a re-analysis of the deposited data

How the results depend on the processing

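No paired analysis was possible because the 3 samples of a group share 1 deposited list, and for the same reason no replicate was left out. Of 73 recomputed values of the 9 results, over 14 alternatives of which 2 were added after seeing the data, 49 did not move beyond their counting interval or, for counts and the chromosome ratio, beyond 1.5 times, and 24 did. Overlap of 50%, lists of equal length, a −log10 q of 5 and counting double negative peaks moved none of the 9 results, and another choice of partner moved none of the 4 it was run on (height calls, width calls, summit spread and summit agreement). With a width of 800 bp there were 3005 regions, with a median width of 987 bp, a median height of 24.5, height calls in 19.2%, width calls in 7.62% (5.09% as reported) and 16.0% in chains. With 1500 bp there were 87 regions, with 1732 bp, a height of 38.6, height calls in 6.90%, width calls in 8.05%, a summit spread of 70 bp, 54.0% with summits within 100 bp and 12.6% in chains, and no chromosome ratio, since some chromosomes held none. These counts move with the threshold by construction. Height calls fell to 2.40% with the deposited fold in place of height, to 2.98% at a ratio of 2 and to 8.74% with rescaled heights, and width calls to 0.961% at a ratio of 2. Summits agreed in 60.6% within 50 bp and in 75.3% within 200 bp, and 17.7% of regions were in chains over gaps of 50 kb. Without the regions of high local background the median height was 27.3, width calls were 3.65% and 4.38% of regions were in chains. The cause of the change with the fold was not tested. The share of all shared peaks called in at least 1 other list was not computed under the alternatives. Nothing is therefore read from how the height and width calls moved. Among the values for single lists and named regions 38 moved and 64 did not. Of the 26 regions named by rule, 25 met it with lists of equal length and 21 with an overlap of 50%.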

Other observations

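The highest shared peaks of this data set, broad or not, were nearly all of the kind with a high local background. Of the 86 shared peaks with a mean height of 60 or more, 80 had a local background of 8 times the lowest or more in every list, among them 28 of the 29 broad ones. In the 414 shared peaks of this kind that were not broad regions, double negative had 1.02 times the reads of double positive in the median (quartiles 0.972 and 1.07), against 1.28 times (1.0 to 1.74) in the other 54847. In the median, near-equal read numbers were thus found in such peaks outside the broad regions as well. Those 414 peaks also had more reads, with a median of 168 in double positive against 31. They were not compared with the others at like read numbers. Their median width was 372 bp, their median height 46.3 and their median deposited fold 2.19. What these regions share in sequence was not analysed here.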
